A study of Arabidopsis thaliana with 12 samples.

Results

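In roots of the Arabidopsis wild type Col-0, 56 of the 22746 probe sets (0.246%) gave a signal lower than on each of the 9 arrays of the sahy1 mutant, of the wild type Col-7 and of an overexpression line of SAHY1. They were chosen on the signals themselves. The lowest of the 9 arrays outside Col-0 had to reach 100 and at least 2 times the highest of the 3 Col-0 arrays. The thresholds make every comparison with Col-0 part of the choice, so the differences from Col-0 are given as a description with no test. Of 58 probe sets that met both, those of the histone H2B gene HTB11 (AT3G46030) and of AT5G44710 were left out. The strongest difference among the named genes was that of AT1G23960, with a mean signal of 12.1 ± 15.2 (SD, n = 3 arrays) in Col-0 and 1263 over the other 9 arrays. Named genes for defence and recognition proteins, for C1 domain proteins, for proteins that act on RNA or DNA and for metabolic enzymes were among the 56, with no count of such genes on the whole array to set them against, and none of the 37 that pair with a single gene lay on chromosome 2.

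The arrays were ATH1 GeneChips, on which each transcript is read by a set of short probes, and the values are signals on a linear scale. There were 12 arrays of roots in 4 groups of 3, from plants 12 d old that had been kept for 5 d on basal medium and for 7 d after transfer, with no stress treatment. The labels give Col-0 for the wild type of sahy1, a T-DNA insertion mutant of SAHY1 (AT2G01640, which encodes a nucleolar protein of pre-rRNA processing), whereas SAHY1OE, the SAHY1 overexpression line 4-1, is set against Col-7. For the 56 probe sets sahy1 differed from its labelled wild type, and Col-7, which is labelled with no change in SAHY1, differed from Col-0 likewise. Each group is a single line, the promoter of the overexpression construct is not given in the labels, and the line, its seed stock and its growth on the plates cannot be told apart. The replicates are described as biological, and the p-values measure the spread between these arrays.

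SAHY1 itself followed the labels, with signals of 258 to 451 in Col-0, 7.01 to 143 in sahy1, 252 to 284 in Col-7 and 20069 to 20789 in SAHY1OE. Of 10 root marker genes 3 were measured with a named probe set, and all 3 gave signals in every group (EXPA7 from 288 to 813, EXPA18 from 291 to 769.7 and the peroxidase gene AT5G66390 from 1468 to 2480.2). For the root hair expansins EXPA7 and EXPA18 the sahy1 arrays, at 288 to 417 and 291 to 329, lay below the arrays of the other groups. None of the 10 green shoot markers and none of the 5 pollen and flower markers had a named probe set, so carry-over of such tissue was not tested. Within a group, arrays correlated at 0.972 to 0.985 over the log2 signals kept, and the array medians lay between 192 and 204.

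Col-0 and Col-7 are both laboratory strains of the Columbia accession. Plant genomes hold large families of resistance proteins, receptor kinases, F-box proteins and C1 domain proteins, whose genes often lie side by side in tandem copies and are known to differ between strains in sequence, copy number and expression. Proteins with a TIR domain detect pathogen molecules inside the cell and pass the signal on through the EDS1 family. In whole roots, a lower signal from fewer cells of a type and a lower signal per cell cannot be told apart.

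The median signal over the 56 probe sets was 111, 113 and 113 on the Col-0 arrays and lay between 498 and 595 on each of the other 9. The mean of the other 9 arrays was 2.31 to 178 times that of Col-0, with a median of 4.26, and for 12 probe sets it was at least 10 times as high. Measured as the gap the selection used, from the highest Col-0 array to the lowest other array, the ratio ran from 2.0 to 93.0 with a median of 2.57. It was under 2.5 for 26 of the 56 and at least 10 for 6. Just inside the limit were AT5G53050 (ratio 2.0, lowest other array 321), AT4G02450 (2.02) and AT1G21770 (2.08). Just outside were AT1G23830 (1.98, lowest other array 265), AT3G50350 (1.95) and AT3G49160 (1.94), and 52 probe sets with a lowest other array of at least 100 had a ratio from 1.5 to under 2. The limit thus cuts through a continuous series of values.

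The word silent holds for some of them at most. On all 3 Col-0 arrays, 24 of the 56 lay under the 40th percentile of the array, 24 lay at or above it and 8 were on both sides. That percentile, also used as the filter on low values, was a signal of 110 to 115 on the Col-0 arrays and of 110 to 122 over all 12 arrays. For 13 the Col-0 signals exceeded the array's median on all 3 arrays, and for none did all 3 lie under the 10th percentile (4.51 to 7.07 over all 12 arrays). Detection calls were not used here, so a Col-0 signal of a few units is read as near background and the size of its fold is uncertain. Outside Col-0, 47 of the 56 exceeded the median of the array on all 9 arrays.

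**Figure D1:**
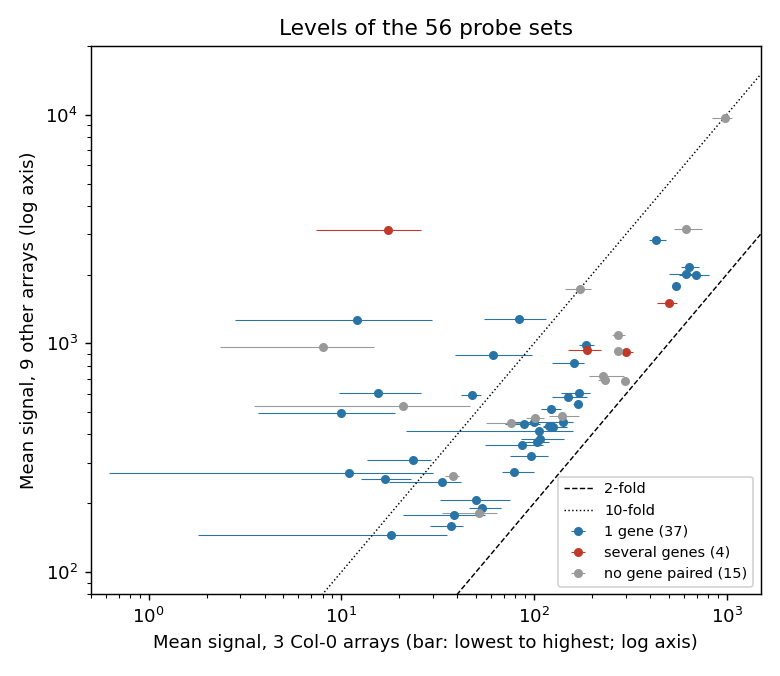
Mean signal of each of the 56 probe sets over the 3 Col-0 arrays (x axis, log scale, with a bar from the lowest to the highest array) against the mean over the 9 other arrays (y axis, log scale), coloured by how many genes the platform table pairs with the probe set. The points spread from a Col-0 mean of 8.09 to one of 979, and 12 lie above the 10-fold line.

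The platform table pairs 37 of the 56 probe sets with a single gene, 4 with several genes and 15 with none, against 13513, 503 and 8730 of all 22746. Of the 37 genes, 36 are annotated as protein-coding and AT1G43590 is a pseudogene. Their median length, 2076 bp in the RefSeq annotation, was near that of all genes measured (2103 bp). The gene models of 16 of the 37 overlap another annotated gene, and no 2 of the 37 overlap each other. The share of all measured genes with such an overlap is not given here, so the 16 cannot be called few or many. The tables hold no descriptions of most genes, so the roles below are background, and 8 of the 37 are left without one. The number of genes of each class among all measured genes was not determined, so the class counts do not say whether a class is over-represented.

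Genes for defence and recognition proteins were 5 of the 37. AT3G43740, which encodes a leucine-rich repeat protein, had signals of 9.69, 11.2 and 25.8 on the Col-0 arrays and between 495 and 720.0 on the other 9 (median 613), a ratio of the means of 39.2. AT5G51630, a TIR-NBS-LRR gene of the kind that detects pathogens, read 12.6, 14.8 and 23.1 on the Col-0 arrays and between 168 and 319 on the other 9 (median 272). AT3G48080, which encodes a close relative of the immune regulator EDS1, read 0.625, 2.32 and 30.0 on the Col-0 arrays and between 209 and 342 on the other 9 (median 285). Col-0 replicate 3 was the highest of the Col-0 arrays for all 3 genes, and the groups did not overlap, as the selection demands. AT1G11280, a lectin receptor kinase gene, had a mean of 89.4 ± 18.1 in Col-0 (SD, n = 3 arrays) against 443 over the other 9. AT1G20030, a thaumatin-like gene of the pathogenesis-related kind, rested on weak signals throughout, 1.80, 17.2 and 35.2 on the Col-0 arrays and between 102 and 181 on the other 9 (median 151). Over the 5 genes the ratio of the means was 4.95 to 39.2, with a median of 15.2. Of the 7 loci listed for the EDS1 family and its partners 2 were measured with a named probe set. The other was SAG101, a partner of EDS1, with signals of 117 to 142 in Col-0, 134 to 182 in sahy1, 98.2 to 121 in Col-7 and 95.2 to 120.1 in SAHY1OE, so that its Col-0 arrays were not the lowest.

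C1 domain proteins, rich in cysteine and histidine, form a large family in Arabidopsis, and 3 of its genes were among the 37. AT4G02540 read 39.0, 47.6 and 97.3 on the Col-0 arrays and between 752 and 1132 on the other 9 (median 854). AT5G43040 read 17.7, 41.0 and 41.9 on the Col-0 arrays and between 179.9 and 286 on the other 9 (median 254). AT5G43520 was well measured in Col-0 too, with 394, 410.4 and 485, and reached 2099 ± 185 in sahy1, 3028 ± 555 in Col-7 and 3348 ± 594 in SAHY1OE (SD, n = 3 arrays each), the highest mean over the other 9 arrays of any of the 37 genes. For AT5G43520 all 3 sahy1 arrays lay below all Col-7 and SAHY1OE arrays. The ratio of the means to Col-0 was 14.6, 7.37 and 6.57.

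Proteins that act on RNA or DNA were encoded by 4 of the genes. AT1G12400, for the smallest subunit of TFIIH, a complex of transcription and nucleotide excision repair, read 48.2, 53.3 and 41.9 on the Col-0 arrays and between 499.7 and 674 on the other 9 (median 598), with the 3 Col-0 values close together. AT1G73490, for a protein with RNA recognition motifs, read 55.4, 79.7 and 115 on the Col-0 arrays and between 978 and 1699 on the other 9 (median 1201). AT3G47120, also with an RNA recognition motif, had 108 ± 30.4 in Col-0 and 384 over the other 9, and AT5G44500, for an Sm protein of the splicing machinery, 79.1 ± 17.8 and 273. The first pair thus differed from Col-0 by 12.5-fold and 15.3-fold, and the second by 3.55-fold and 3.45-fold.

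Metabolic enzymes and transporters made up 10 of the 37, with ratios from 3.20 to 4.65 with a median of 3.62. AT1G12010, an ACC oxidase that makes the hormone ethylene, had 635 ± 74.7 in Col-0, 2095 ± 348 in sahy1, 2177 ± 232 in Col-7 and 2190.4 ± 256 in SAHY1OE (SD, n = 3 arrays each), a ratio of 3.39. AT1G21770, for an acyl-CoA N-acyltransferase, had 613 ± 95.5 in Col-0 and 2003 over the other 9. The UDP-glycosyltransferase gene AT3G46700, whose product attaches sugars to small molecules, gave a ratio of 3.58, the glutathione S-transferase gene AT5G45020 3.54, the rhamnogalacturonate lyase gene AT1G09910, whose product cuts pectin, 3.20, and the ceramidase gene AT5G58980 4.65. The others were AT3G32030 (terpene synthase family, 4.27, read by a probe set marked as shared between transcripts), AT1G19540 (isoflavone reductase-like, 4.24), AT5G53050 (an alpha/beta hydrolase, 3.92) and AT1G02260 (an ion symporter, 3.65). For AT5G53050 the Col-0 arrays disagreed, at 137, 160.0 and 21.6.

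A further 7 genes fell into no common class. AT4G02450 encodes the co-chaperone p23 of HSP90 and had one of the smallest differences, 697 ± 122 in Col-0 and 1990.4 over the other 9 (ratio 2.86). The cupredoxin gene AT3G27200 gave a ratio of 5.25, the peptidase inhibitor gene AT1G72060 4.55, the NHL domain gene AT1G23890 4.15, the F-box gene AT1G11270 4.11, the SOUL heme-binding gene AT1G78460 3.89 and the WD40 repeat gene AT1G24530 3.56. Among the 8 without an assigned role, AT1G23960, which encodes a protein with a domain of unknown function, read 29.7, 2.81 and 3.84 on the Col-0 arrays and between 1173 and 1459 on the other 9 (median 1242), a ratio of 104. The pseudogene AT1G43590 read 7.37, 18.9 and 3.69 on the Col-0 arrays and between 388 and 704 on the other 9 (median 471), and AT5G51620 read 13.6, 29.2 and 27.9 on the Col-0 arrays and between 258 and 372 on the other 9 (median 299.8). For these 3 every Col-0 signal was 29.7 or less, and every other signal was 258 or more. The remaining 5 gave ratios of 5.09 (AT5G57785), 3.43 (AT3G45730), 3.32 (AT5G47940), 3.26 (AT5G01350) and 3.20 (AT3G27350).

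**Figure D2:**
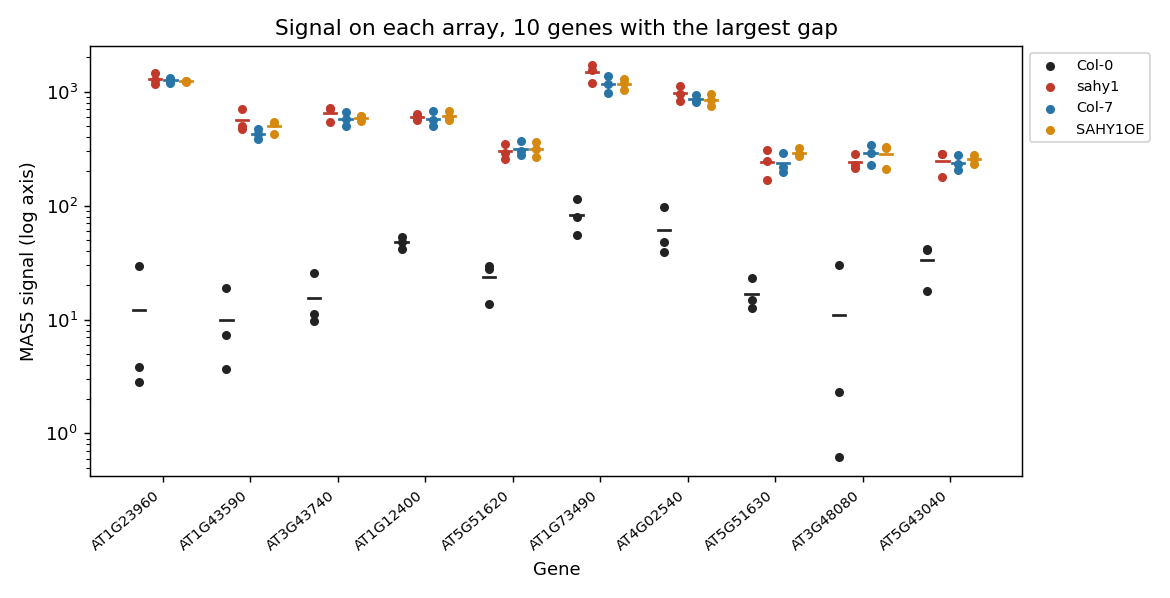
Signal on each of the 12 arrays (points, log axis) with the mean of each group of 3 (short lines) for the 10 single-gene probe sets with the largest gap between Col-0 and the other arrays. The Col-0 points of each gene sit at 115 or lower, and the red, blue and orange points of sahy1, Col-7 and SAHY1OE lie at 168 or higher.

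The probe sets without a single gene included the widest gap of all. Probe set 245651_s_at, which pairs with 5 genes of chromosome 1, read 19.4, 25.9 and 7.36 on the Col-0 arrays and between 2404 and 3753 on the other 9 (median 2945), and the signal cannot be divided among the 5. Probe sets 252562_s_at and 257714_at pair with 8 genes of histone H4 and 5 genes of histone H3, the core proteins of chromatin, and had ratios of 2.98 and 4.97 from Col-0 signals of 505 ± 61.2 and 189 ± 37.1. Probe set 263033_s_at pairs with 2 genes and had a ratio of 3.03. Among the 15 probe sets with no paired gene the ratios ran from 2.31 to 119 with a median of 4.63. Probe set 248978_at read 2.34, 14.9 and 7.04 on the Col-0 arrays and between 821 and 1104 on the other 9 (median 937). The brightest of the 56, 249265_at, read 1064, 836 and 1037 on the Col-0 arrays and between 7689.7 and 12059 on the other 9 (median 9376). Its Col-0 signals were thus high, and the difference was nevertheless 9.92-fold.

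Comparisons among the 9 arrays outside Col-0 were not used for the choice, although the demand that all 9 arrays exceed Col-0 limits how low a member can be. SAHY1OE against Col-7 sets the overexpression line against its labelled wild type. The labelled wild type of sahy1 is Col-0, so sahy1 against Col-7 and sahy1 against SAHY1OE differ in line as well as in SAHY1. Whether SAHY1 loss moves these genes thus cannot be read from them. Group means were fitted to all 12 arrays with limma, and a call needed a Benjamini-Hochberg adjusted p under 0.05 over 13834 probe sets and a fold above 2. All 56 passed the filter on low signals. In sahy1 against Col-7, 0 of the 56 were called, against 2.36% of all probe sets tested, and 0 by the methods' unpaired test (unadjusted limma p under 0.05 for 11, of which 5 higher and 6 lower). The median log2 fold change was 0.02, with a range from -0.71 to 0.61, and 54 of the 56 lay within 1.5-fold. In SAHY1OE against Col-7, 0 were called, against 0.0217% of all, and 0 by the methods' unpaired test (unadjusted limma p under 0.05 for 1, which was higher). Here the log2 fold changes ran from -0.32 to 0.38, with a median of 0.00, and the median over all probe sets was -0.0. In sahy1 against SAHY1OE, 0 were called, against 2.16% of all, and 0 by the methods' unpaired test (unadjusted limma p under 0.05 for 10, of which 3 higher and 7 lower), with a range from -0.66 to 0.58. The shares of all probe sets with an unadjusted p under 0.05, or called by the unpaired test, are not given here. The counts of 11, 1 and 10, and the 0 of the unpaired test, thus cannot be called few or many.

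Without the threshold on the fold, 3 of the 56 (5.36%) passed an adjusted p under 0.05 in sahy1 against Col-7, where 12.9% of all probe sets did, and 4 (7.14%) in sahy1 against SAHY1OE, where 12.1% did. None did in SAHY1OE against Col-7, where 0.0289% of all did. In sahy1 against Col-7 the probe set 249033_at had a log2 fold change of -0.71 (95% interval from -1.0 to -0.42, limma adjusted p = 0.00432) and 259517_at one of -0.46 (limma adjusted p = 0.0211), while 247345_at had one of 0.51 (limma adjusted p = 0.0381). The same 3 passed against SAHY1OE, in the same directions, and these comparisons share the sahy1 arrays. AT5G43520 was the 1 named gene among them, with a log2 fold change of -0.66 in sahy1 against SAHY1OE (limma adjusted p = 0.0215).

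A p that misses the threshold does not show that the groups act alike, so the intervals were counted. The 95% interval of the log2 fold change lay wholly within a 2-fold change for 47 of the 56 in sahy1 against Col-7, for 50 in SAHY1OE against Col-7 and for 45 in sahy1 against SAHY1OE. These were 83.9%, 89.3% and 80.4% of the 56, against 89.7%, 97.9% and 90.2% of all probe sets tested. The spread in this fit includes the Col-0 arrays, where signals near background scatter on the log2 scale. With the 2 compared groups fitted alone, the counts were 54, 56 and 54 of 56, or 96.4%, 100% and 96.4%, against 90.6%, 98.8% and 91.0% of all. The selection demands a signal of at least 100 on all 9 arrays, which the probe sets tested need not reach. The shares are thus not like for like, and no closer agreement among the 56 can be read from them. Over the 9 arrays the coefficient of variation of a probe set had a median of 16.6% among the 56 and of 15% among the 12691 probe sets whose 9 arrays all reached 100.

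**Figure D3:**
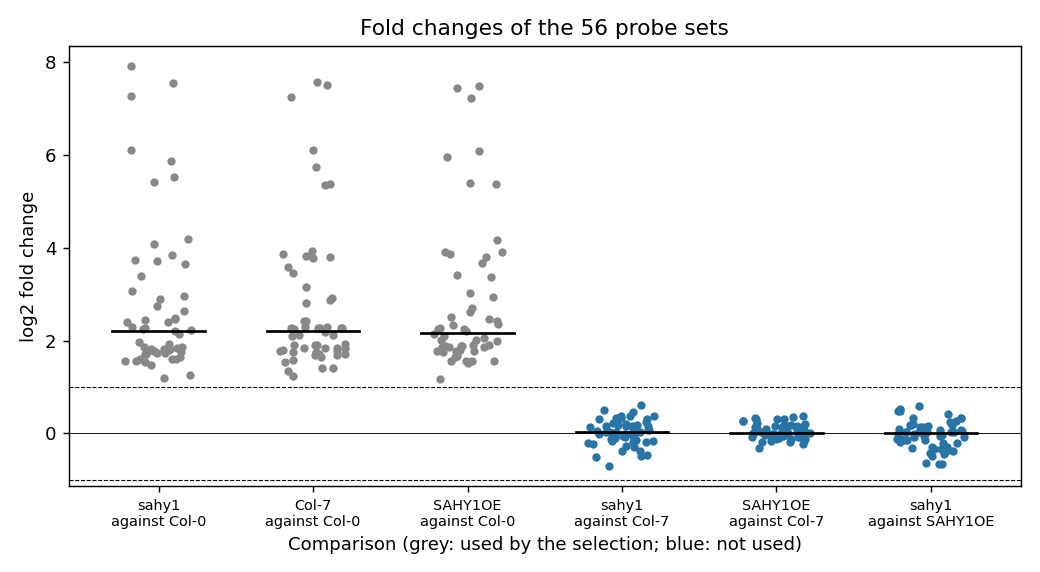
log2 fold changes of the 56 probe sets in 6 comparisons, with the median of each as a line and dashed lines at 2-fold. The grey points, comparisons with Col-0 that the selection used, run from 1.18 to 7.92, and the blue points, comparisons among the other groups, all lie between -0.71 and 0.61.

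The same thresholds set for another group found 22 that were low only in sahy1, 0 low only in Col-7 and 0 low only in SAHY1OE. In the opposite direction, 7 probe sets were high only in Col-0, 35 only in sahy1, 1 only in Col-7 and 1 only in SAHY1OE. Between SAHY1OE and Col-7, 3 of 13834 probe sets were called (0.0217%). A probe set low or high in 1 of these groups was thus seldom so in it alone. Their small counts cannot be set beside those of Col-0 or sahy1. QQS (AT3G30720), an orphan gene of starch metabolism whose level is known to differ between strains with its DNA methylation, did not meet the rule. Its signals were 1.82 to 10.7 in Col-0, 2.17 to 45.9 in SAHY1OE, 34.2 to 58.4 in sahy1 and 596 to 938 in Col-7, so it was high only in Col-7. Of 19 genes listed for DNA methylation and silencing 1 was measured with a named probe set, the DNA demethylase gene DME, with 3 probe sets, none among the 56, and in each the Col-0 arrays were not below the lowest of the other 9.

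The 37 genes can be placed on a chromosome, while the 15 probe sets with no paired gene cannot. Chromosome 1 held 16 of the 37 (43.2%) and 25.8% of the 13264 genes measured, chromosome 5 held 11 (29.7%, against 22.6%), chromosome 3 held 8 (21.6%, against 20.6%) and chromosome 4 held 2 (5.41%, against 14.6%). Chromosome 2, with 2178 measured genes (16.4%) and the SAHY1 gene itself, held none of the 37. Places are given in the order of the locus codes, and no test of the spacing was run.

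Within the chromosomes the genes are described by spans of the order that have members at both ends, with outlying genes set apart. Ends set in this way make a span short, so no confinement to a part of a chromosome is read from it. On chromosome 3 all 8 lay between AT3G27200 and AT3G48080, a span of 587 measured genes or 21.5% of that chromosome's. On chromosome 5, 10 of 11 lay between AT5G43040 and AT5G58980, 27.2% of its measured genes, and AT5G01350 stood alone near the other end. On chromosome 1, 12 of 16 lay between AT1G02260 and AT1G24530 (32%), 3 between AT1G72060 and AT1G78460 (9.98%), and the pseudogene AT1G43590 between them. Both genes of chromosome 4, AT4G02450 and AT4G02540, lay with 4 measured genes between them.

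**Figure D4:**
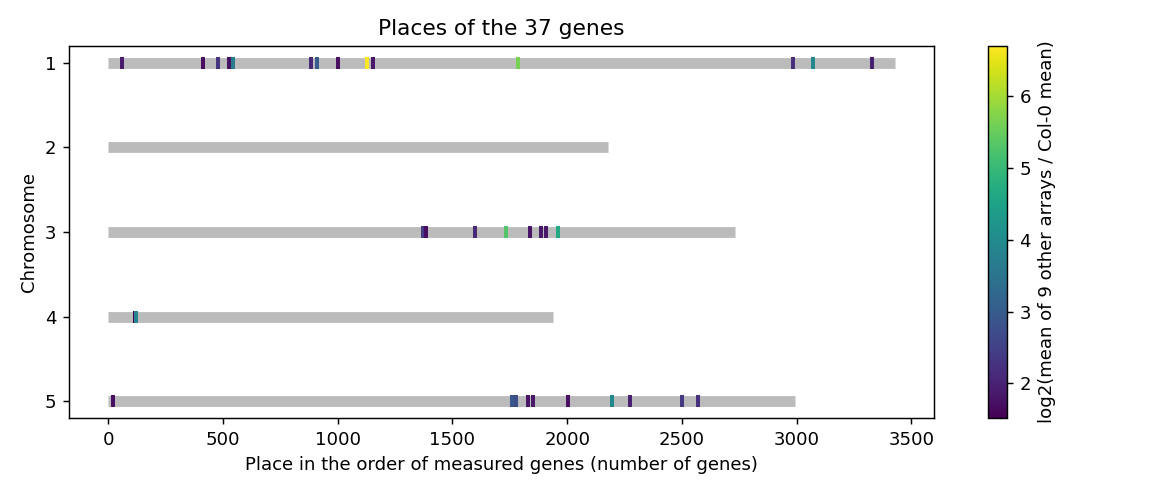
Places of the 37 single-gene members (ticks) in the order of measured genes along each of the 5 chromosomes (grey bars, whose length is the number of genes measured), coloured by the log2 ratio of the mean of the 9 other arrays to the Col-0 mean. Chromosome 2 has no tick, and the ticks of chromosome 3 lie in part of the bar. Those of chromosome 5 do so too, apart from AT5G01350 near its start.

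Of the 37 genes, 14 (37.8%) lay in 7 pairs with at most 20 measured genes between the partners, and 23 lay in 9 stretches when up to 50 were allowed. AT1G11270 and AT1G11280 are direct neighbours among the measured genes, as are AT5G51620 and AT5G51630, and a single measured gene lies between AT1G23890 and AT1G23960. The other pairs were AT4G02450 with AT4G02540, AT3G27200 with AT3G27350, AT5G43040 with AT5G43520 and AT1G12010 with AT1G12400, with 4, 10, 16 and 20 measured genes between. In 1 pair, AT5G43040 and AT5G43520, both partners are C1 domain genes, and in 3 pairs 1 partner has no assigned role.

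Some genes paired with the probe sets of several genes lie close to members, as do the genes left out. For 263033_s_at, both genes stand directly beside AT1G23960. For 257714_at, 1 of the 5 genes stands directly beside AT3G27350. For 245651_s_at, all 5 genes lie 8 or 9 measured genes beyond AT1G24530. For 252562_s_at, 1 of the 8 genes lies 10 measured genes from AT3G45730. The other genes of 257714_at and 252562_s_at that could be placed lie 21 to 418 measured genes from the nearest member. HIS4, also paired with 252562_s_at, was not placed on any chromosome here. HTB11 lies in the stretch from AT3G45730 to AT3G48080, and AT5G44710 in that from AT5G44500 to AT5G45020. Which gene of a shared probe set gives the signal was not determined.

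Most genes between the members had ratios to Col-0 under 2. In the 9 stretches, 137 single-gene probe sets other than the 56 and those of HTB11 and AT5G44710 reached 100 on all 9 arrays, and 5 of them (3.65%) had a mean over the 9 arrays more than 2 times that of Col-0. Among all 6708 such probe sets, with the same ones set apart, 51 (0.760%) did. The 5 were AT3G46720, AT3G47010, AT3G47800, AT5G43180 and AT5G44560, which missed the threshold because the arrays of Col-0 came too close to the lowest other array. In the stretch from AT3G45730 to AT3G48080, which holds 122 measured genes and 4 members, the 54 other probe sets had a median log2 ratio of 0.08. AT3G46720 stood out there, with a mean of 84.8 in Col-0, 396 in sahy1, 229 in Col-7 and 229 in SAHY1OE. From AT1G11270 to AT1G12400 the 29 others had a median of 0.00, and AT1G11800 was the 1 probe set more than 2 times higher in Col-0 (424, against 199 to 209 in the other groups).

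**Figure D5:**
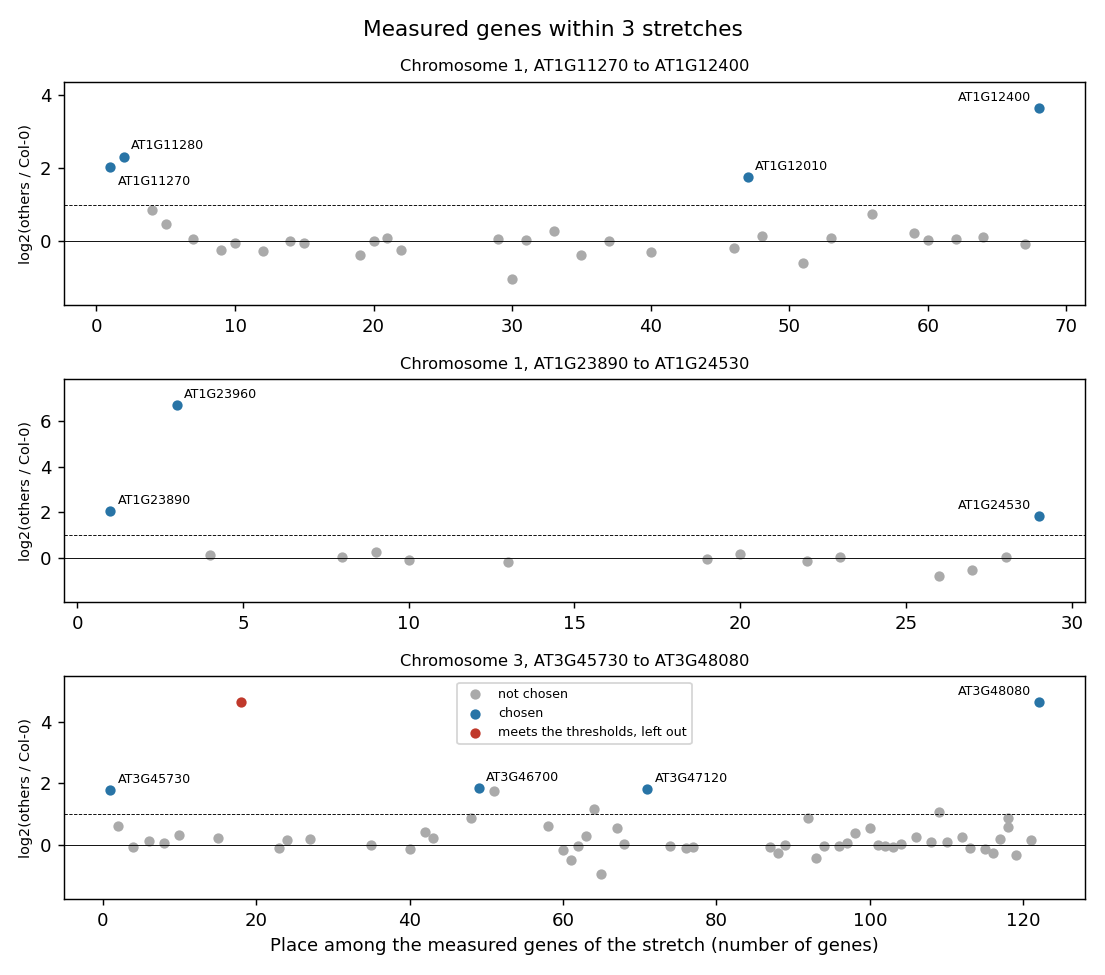
log2 ratio of the mean of the 9 other arrays to the Col-0 mean (y axis) for single-gene probe sets that reached 100 on all 9 arrays, in gene order (x axis, number of genes), in 3 stretches. Chosen genes (blue) and the left-out HTB11 (red) stand above the 2-fold line (dashed), and most of the genes between them lie near 0.

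Of the 7 probe sets high only in Col-0, each of a single gene, 2 lay near members. AT1G02300, with at least 695 in Col-0 and at most 270.3 elsewhere, lay with 1 measured gene between it and AT1G02260, which showed the opposite pattern (ratio 3.65). AT5G51930, with at least 178 in Col-0 and at most 66.2 elsewhere, lay with 15 measured genes between it and AT5G51630. The other 5, AT1G26530, AT3G28310, AT3G28320, AT3G29410 and AT5G35940, were more than 20 measured genes from any member. By chromosome the 7 were 2 on chromosome 1, 3 on chromosome 3 and 2 on chromosome 5, and none on chromosomes 2 and 4.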

How the data were processed

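The authors deposited linear MAS5 signal intensities for 12 ATH1 arrays, with 1 trimmed mean shared by all arrays. The sources used here give no MAS5 version, and GeneSpring GX is named for the authors' statistics. Sequencing depth does not apply, and 3 arrays per group limit the precision.

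Of 22810 probe sets, 64 controls were left out. Between 46 and 333 signals per array under 1 were set to 1, and log2 was taken. The fit kept a probe set if some group had all 3 of its arrays at or above the 40th percentile, and limma 3.58.1 in R 4.3.3 was run with eBayes on group means over 12 arrays. Simulated data served as a check of the fit. Ratios in the text are ratios of arithmetic means. Python 3.11.15 with matplotlib 3.10.9 and pandas 2.3.3 made the tables and plots.

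Gene names were used for probe sets that the platform table pairs with a single gene. Named in the text are all single-gene members, with full values for the 10 of largest gap, and the genes nearest the limits. Genes between or beside members were named after their values were seen. The members and lists were chosen with earlier results of these data known. Gene classes could not be matched by description, since the reference tables (RefSeq, TAIR10.1) hold none, and were assigned from general knowledge with the values in view. No chance test of gene order was run.

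The alternatives were quantile normalization, median centring, an offset of 32, other filters and thresholds, fits to 2 groups, a replicate block, the methods' unpaired test and leaving out each array. Sequences were not analysed here.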

Additional observations from a re-analysis of the deposited data

How the results depend on the processing

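The choice of the 56 probe sets rests on its limits more than on the scaling. With a ratio of at least 3 there were 22, and with at least 1.5 there were 108. Quantile normalization and median centring left 55 each, all of them among the 56, and a lowest other signal of at least 200 or 50 gave 47 or 69. Leaving out 1 array at a time gave 56 to 66, always with the 56 included, as fewer arrays can only widen the choice. The number of genes within 20 measured genes of another was 14 to 20 with an array left out, 23 with a window of 50, 10 with a window of 10, and 4 with a ratio of at least 3. In the 3 comparisons without Col-0, 0 of the 56 were called under every alternative with a fold threshold, including each array left out, and 3 and 4 passed on the adjusted p alone in sahy1 against Col-7 and in sahy1 against SAHY1OE. The share of all probe sets called under each alternative with a fold threshold is not given here. Replicate numbers were not shown to pair the arrays (correlations of same-numbered deviations from -0.10 to 0.24, not all above 0.1), and the replicate block also gave 0 calls in each of the 3 comparisons. For probe sets near background in Col-0, the size of a ratio depends on a few signal units.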

Other observations

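Lowering the limit on the lowest other array from 100 to 50 added 13 probe sets with the same pattern at weaker signals, 9 of them of a single gene. A TIR domain gene, AT5G45220, had at most 11.1 in Col-0 and at least 85.0 elsewhere. The C1 domain gene AT5G43030, directly before AT5G43040 in the order of the locus codes, had at most 2.40 in Col-0 and at least 73.7 elsewhere. AT3G53650, a histone H2B gene, had at most 8.35 in Col-0 and at least 83.7 elsewhere, and the resistance gene AT1G15890, of the NBS-LRR class, at most 4.55 and at least 92.2. The other single genes, whose classes are not given here, were AT5G65850, AT3G47680, AT3G45530, AT3G44400 and AT4G08110, so the classes named are no full count. None of these 13 lay on chromosome 2 as far as a single gene is paired. They were looked at after the data were seen.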
